A study of Homo sapiens with 12 samples.

Results

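Transcripts of the interleukin-6 (IL6) family were followed in A549 cells, a human lung adenocarcinoma epithelial line, and in a derivative of it. The 10 genes were taken by name and are all reported, although earlier results of these data were known when they were chosen. The set holds the ligands IL6, IL11, LIF and CLCF1, the receptor chains IL6R, IL6ST, LIFR and OSMR, and the signalling genes SOCS3 and STAT3. They are 10 of the 58830 rows of the deposited table, and all 10 were among the 20456 genes with enough signal to be tested.

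Members of the IL6 family are secreted ligands that share a signalling chain, gp130, encoded by IL6ST. IL6 and IL11 bind a private receptor (IL6R or IL11RA) and then gp130, whereas LIF uses gp130 together with the receptor chain made from LIFR. CLCF1 uses these chains and also the ciliary neurotrophic factor receptor (CNTFR), and OSMR is the second chain for oncostatin M. The receptor-bound JAK kinases then phosphorylate STAT3, which enters the nucleus, and SOCS3, itself a STAT3 target, binds gp130 and its JAKs and limits the signal. RNA levels do not report on phosphorylation, which is where much of this pathway is controlled.

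The study crossed genotype with treatment. Wild-type A549 cells, or a derivative named Sm22mut in the labels and described there as a knockout of the miR22/SNAI1 target site (here the edited line), were kept untreated or were given TGFβ at 10 ng/mL, and were sampled on day 5. TGFβ is used in such cells to induce epithelial-mesenchymal transition, in which epithelial cells take on mesenchymal features, and SNAI1 is a transcription factor of that programme. Each of the 4 groups had 3 libraries, called biological repeats in the labels, and all cells grew in serum-containing medium, serum being itself a source of cytokines. Only 1 derivative carries the edit, so effects of the edit and of how that line was derived cannot be told apart, and the sources used here do not say whether it is a clone.

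Values are normalised read counts per gene, and 84210775 to 111141708 reads per library lay behind them. SNAI1 averaged 496 ± 88.6 in untreated wild type, 875 ± 97.2 in treated wild type, 481 ± 43.4 in the untreated edited line and 1313 ± 96.5 in the treated edited line (SD, n = 3), a level that does not itself test whether the target site was altered. Of the 6 epithelial markers, KRT8, KRT18, CDH1 and EPCAM exceeded 1000 in all 12 libraries, while KRT19 ran from 22.8 to 183 and CLDN7 from 17.6 to 405. The 6 summed to 534900 to 557100 in wild-type cells without TGFβ and to 391200 to 508300 with it. In the edited line the sums were 557200 to 574900 and 406700 to 469600. KRT8 and KRT18 gave most of these sums. The 4 alveolar markers summed to 4.29 to 37.1, with SFTPA1 at 0 in all 12. The leukocyte markers summed to 337 to 424 in wild-type cells without TGFβ and 243 to 288 with it, and to 317 to 343 and 265 to 311 in the edited line. ITGAM (163 to 335) and CD14 (36.6 to 106) gave most of this, whereas PTPRC, the general leukocyte marker, reached at most 15 and CD3E was at 0 in 11 libraries. The endothelial markers summed to 115 to 160 and 32.6 to 80.7 in wild type, and to 143 to 185 and 36.5 to 68.3 in the edited line. The 6 fibroblast markers, LUM and PDGFRA among them, summed to between 165 and 207 in wild-type cells without TGFβ and between 1408 and 1773 with it, and to 220 to 283 and 1944 to 2317 in the edited line. These sums move with TGFβ as do several genes below, and their part in those changes was not tested. In bulk RNA, fewer cells making a transcript and less of it per cell cannot be told apart.

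The 4 genes that rose with TGFβ in both lines were IL6, IL11, OSMR and STAT3. The 250 bases before their start sites are printed because the genes share this rise, although they differed in other comparisons. The sequences and start sites are from RefSeq (GRCh38.p14), on the gene's own strand, 5′ to 3′. By the GENCODE 29 positions given below, the IL6 window lies within the gene, and the OSMR and STAT3 windows overlap their genes in part. Capitals mark a match to the AP-1 or NF-kB motif.
IL11: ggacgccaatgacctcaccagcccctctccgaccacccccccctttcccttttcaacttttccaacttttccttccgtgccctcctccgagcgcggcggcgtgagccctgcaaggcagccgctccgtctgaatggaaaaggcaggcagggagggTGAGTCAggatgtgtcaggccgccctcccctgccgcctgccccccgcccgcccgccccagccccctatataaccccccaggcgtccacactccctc
IL6: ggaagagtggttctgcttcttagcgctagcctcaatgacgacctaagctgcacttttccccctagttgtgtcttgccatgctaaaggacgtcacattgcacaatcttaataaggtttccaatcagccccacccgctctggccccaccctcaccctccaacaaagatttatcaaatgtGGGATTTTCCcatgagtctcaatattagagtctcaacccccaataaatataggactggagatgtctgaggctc
OSMR: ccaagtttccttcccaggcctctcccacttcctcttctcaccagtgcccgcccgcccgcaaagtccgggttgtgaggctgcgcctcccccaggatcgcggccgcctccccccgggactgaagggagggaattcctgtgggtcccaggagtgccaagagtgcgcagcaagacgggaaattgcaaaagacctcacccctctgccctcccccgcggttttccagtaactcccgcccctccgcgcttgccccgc
STAT3: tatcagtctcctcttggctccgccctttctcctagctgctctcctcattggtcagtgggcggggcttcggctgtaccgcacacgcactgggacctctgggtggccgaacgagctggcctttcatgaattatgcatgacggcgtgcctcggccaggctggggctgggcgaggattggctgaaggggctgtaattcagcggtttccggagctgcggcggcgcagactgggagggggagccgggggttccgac
The IL11 window is chr19:55370464-55370713 on the minus strand, and its capitals are the AP-1 motif TGANTCA, at bases 96 to 90 before the start. The IL6 window is chr7:22726950-22727199 on the plus strand, and its capitals, GGGATTTTCC at bases 73 to 64 before the start, match the NF-kB consensus. The OSMR window (chr5:38845762-38846011, plus strand) and the STAT3 window (chr17:42388443-42388692, minus strand) held neither. Windows were found for 8 of the 10 genes, not for LIF and CLCF1. Motifs were searched on both strands, and of 35116 RefSeq windows of this length 6.57% held the AP-1 motif and 5.21% the NF-kB consensus. The short SMAD motif CAGAC was present before IL6, IL11 and STAT3, and also before SOCS3 and in the second LIFR window. That is 5 of the 11 windows of these genes, where 38% of all windows held it. The palindrome GTCTAGAC, which holds no CAGAC, was in none of the 11 windows. The STAT motif TTCNNNGAA occurred in both of the first 2 of the 3 LIFR windows and in 6.57% of all windows. A match describes letters only.

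**Figure D1:**
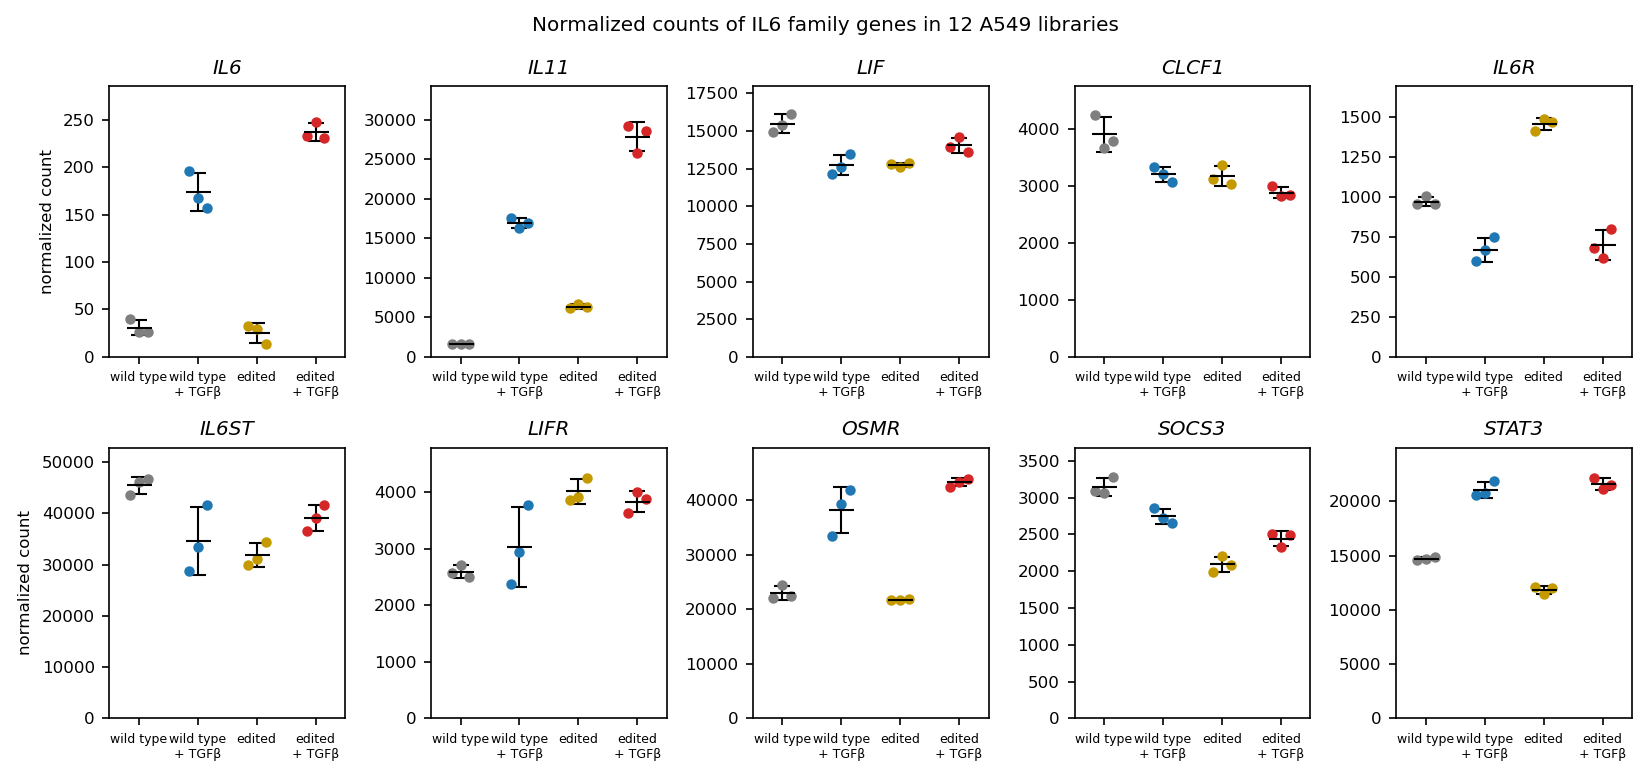
Normalised count of each of the 10 genes in each of the 12 libraries, with 1 panel per gene and axes from 0; points are libraries and bars are group means ± SD. IL11 occupies 4 separate levels, from 1614 in the lowest untreated wild-type library to 29244 in the highest treated edited library, whereas the LIFR libraries of neighbouring groups overlap.

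With TGFβ, wild-type cells had more IL6, IL11, OSMR and STAT3 RNA and less LIF, CLCF1, IL6R, IL6ST and SOCS3. Thus 4 of 10 genes rose and 5 fell, against 30.8% and 30.9% of all tested genes. In the edited line 7 rose (IL6, IL11, LIF, IL6ST, OSMR, SOCS3 and STAT3) and 1 fell (IL6R), against 32.1% and 30.7%. The median log2 fold change of the 10 was 0.00 in wild type and 0.26 in the edited line, where all tested genes had medians of 0.02 and 0.03. These and all later calls are by limma with Benjamini-Hochberg adjustment over all tested genes, at a threshold of 0.05, and fold changes, given with their standard error, use log2(value + 1).

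Without TGFβ, the edited line had more IL11, IL6R and LIFR and less LIF, CLCF1, IL6ST, SOCS3 and STAT3 than wild type. That is 3 higher and 5 lower of 10, against 14.3% and 17.5% of all tested genes, with a median of -0.29 beside 0.00 for all genes. With TGFβ, IL11 alone of the 10 passed the test between the lines, being higher, where 7.38% of all genes were higher and 4.32% lower. The comparisons share libraries with one another, so their values are given side by side and not as independent results.

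The response to TGFβ differed between the lines for 6 of the 10 genes by the interaction test. The response was more positive in the edited line for LIF, IL6ST, SOCS3 and STAT3 (4 genes) and more negative for IL11 and IL6R (2 genes), where 10.6% and 6.02% of all genes were called in these directions. Scaling matters for the direction over all genes: higher calls were 63.7% of all interaction calls, but 53.4% with quantile normalization and 51.5% with equal library totals. The same share for the treated lines was 63.1%, then 50.4% and 48.1%. All 6 interaction calls were also made under each of these scalings.

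**Figure D2:**
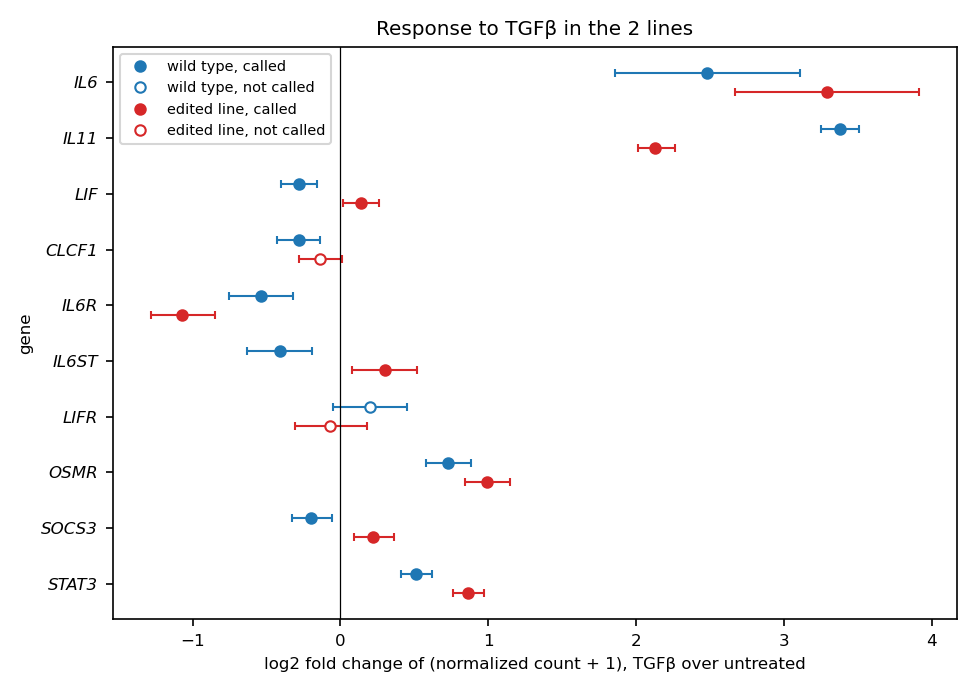
Log2 fold change of each gene with TGFβ in wild type and in the edited line; points are limma estimates and bars are 95% intervals. LIF, IL6ST and SOCS3 lie below 0 in wild type and above 0 in the edited line, while IL11 rose in both, by 3.38 and 2.13.

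Among the ligands, IL11 was higher with TGFβ and higher in the edited line. IL11, a cytokine that signals through IL11RA and gp130, lies on chromosome 19 (GRCh38, 55364389 to 55370463, minus strand). Its counts in replicates 1 to 3 were 1614, 1649 and 1618 in untreated wild type and 17588, 16293 and 16985 with TGFβ. In the edited line they were 6120, 6653 and 6269 untreated and 29244, 25738 and 28621 with TGFβ. No library of one group overlapped another group, and the order was untreated wild type, untreated edited line, treated wild type, treated edited line. TGFβ raised IL11 10.4-fold in wild type (log2 fold change 3.38 ± 0.06, adjusted p = 1.71e-16) and 4.39-fold in the edited line (2.13 ± 0.06, adjusted p = 2.95e-14). The edited line started 3.90-fold higher without TGFβ (1.96 ± 0.06, adjusted p = 1.40e-11) and was 1.64-fold higher with it (0.72 ± 0.06, adjusted p = 1.60e-06). Its fold response was therefore smaller by 1.25 on the log2 scale (interaction -1.25 ± 0.08, adjusted p = 7.94e-07), although its treated level was the highest measured.

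IL6, the founding member and an inducer of the acute phase response, was low in every group and rose with TGFβ in both lines. It lies on chromosome 7 (22725884 to 22732002, plus strand). Its counts were 39.9, 26.4 and 25.8 in untreated wild type and 196, 168 and 157 with TGFβ, and 33.0, 29 and 13.1 in the untreated edited line and 233, 248 and 231 with TGFβ. The treated libraries all exceeded the untreated ones, and the untreated groups overlapped. IL6 rose 5.60-fold in wild type (2.48 ± 0.29, adjusted p = 1.61e-06) and 9.80-fold in the edited line (3.29 ± 0.29, adjusted p = 5.25e-08). The difference between these responses did not pass the test (0.81 ± 0.41, adjusted p = 0.207, 95% interval -0.07 to 1.69). In the treated cells the libraries of the lines did not overlap, but the difference of 0.45 ± 0.29 did not pass either (adjusted p = 0.363). The lowest library, replicate 3 of the untreated edited line, rests on 16 reads, and without it the difference between the untreated lines moved from -0.35 to 0.04, neither passing the test.

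LIF, the leukaemia inhibitory factor, changed little in size. It lies on chromosome 22 (30240447 to 30246851, minus strand). Counts were 14913, 15418 and 16150 in untreated wild type and 12115, 12627 and 13487 with TGFβ, against 12782, 12601 and 12869 in the untreated edited line and 13945, 14584 and 13618 with TGFβ. Within each line the treated and untreated libraries did not overlap, and they moved in opposite directions. LIF fell by 0.28 in wild type (log2 fold change -0.28 ± 0.06, adjusted p = 0.000359). In the edited line it rose by 0.14 ± 0.06 (adjusted p = 0.0402), a call that did not hold in 11 of 24 alternative analyses, among them edgeR (adjusted p = 0.134) and equal library totals (adjusted p = 0.374). The difference between the responses passed the test (0.42 ± 0.08, adjusted p = 0.00184). Untreated, the edited line had less LIF than wild type (-0.28, adjusted p = 0.00120).

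CLCF1, a ligand that acts through the ciliary neurotrophic factor receptor, lies on chromosome 11 (67364168 to 67374177, minus strand). Counts were 4246, 3672 and 3787 in untreated wild type and 3334, 3205 and 3074 with TGFβ, and 3128, 3357 and 3028 against 2989, 2813 and 2835 in the edited line. Untreated wild type stood above every other group. CLCF1 fell by 0.28 with TGFβ in wild type (-0.28 ± 0.07, adjusted p = 0.00185). In the edited line the value was -0.14 ± 0.07 (adjusted p = 0.0872), although it passed with quantile normalization, TMM, equal library totals and edgeR (adjusted p from 0.00713 to 0.0331). The responses did not differ past the threshold (0.14, adjusted p = 0.348, 95% interval -0.06 to 0.35).

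Of the receptor chains IL6R, IL6ST, LIFR and OSMR, only OSMR rose in both lines. OSMR, the oncostatin M receptor chain, lies on chromosome 5 (38845858 to 38945596, plus strand). Counts were 22081, 24374 and 22372 in untreated wild type and 33481, 39277 and 41791 with TGFβ, and 21751, 21630 and 21796 against 42465, 43420 and 43946 in the edited line. Every treated library exceeded every untreated one. The increase was 1.66-fold in wild type (0.73 ± 0.07, adjusted p = 1.89e-07) and 1.99-fold in the edited line (0.99 ± 0.07, adjusted p = 3.92e-09). The responses did not differ past the threshold (0.26 ± 0.10, adjusted p = 0.0897), but passed it when replicate 3 of treated wild type was left out (0.33, adjusted p = 0.0130). OSMR shares 229 bases with RICTOR on the opposite strand, and the sources used here do not say whether counting used strand.

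IL6R, the private receptor of IL6, was lower with TGFβ in both lines. It lies on chromosome 1 (154405193 to 154469450, plus strand). Counts were 955, 1003 and 952 in untreated wild type and 597, 668 and 746 with TGFβ, and 1414, 1488 and 1466 against 680, 618 and 799 in the edited line. The treated groups overlapped, and the untreated edited line stood above all other libraries. IL6R fell by 0.54 in wild type (-0.54 ± 0.10, adjusted p = 0.000218) and by 1.07 in the edited line (-1.07 ± 0.10, adjusted p = 1.16e-07), and the responses differed (-0.53 ± 0.14, adjusted p = 0.0190). The untreated edited line exceeded wild type (0.59 ± 0.10, adjusted p = 0.000366). Treated, the lines differed by 0.06 (adjusted p = 0.782, 95% interval -0.16 to 0.27).

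IL6ST, which encodes the shared chain gp130, moved in opposite directions in the lines. It lies on chromosome 5 (55935095 to 55994993, minus strand). Counts were 43690, 46057 and 46775 in untreated wild type and 28759, 33439 and 41723 with TGFβ, and 29982, 31182 and 34459 against 36662, 39176 and 41702 in the edited line. Untreated wild type was the highest group and did not overlap the others. IL6ST fell by 0.41 in wild type (-0.41 ± 0.10, adjusted p = 0.00242) and rose by 0.30 in the edited line (0.30 ± 0.10, adjusted p = 0.0183). The rise did not hold in 5 of 24 alternatives, among them equal library totals (0.23, adjusted p = 0.0881). The difference between the responses passed the test (0.71 ± 0.14, adjusted p = 0.00324), and the untreated edited line was lower than wild type (-0.52 ± 0.10, adjusted p = 0.00113).

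LIFR, the partner of gp130 for LIF, lies on chromosome 5 (38474963 to 38608354, minus strand). Counts were 2562, 2719 and 2503 in untreated wild type and 2379, 2946 and 3781 with TGFβ, and 3867, 3913 and 4258 against 3630, 3996 and 3876 in the edited line. The treated wild-type libraries ran from the lowest value of the gene, 2379, to 3781, and overlapped both untreated wild type and the treated edited line. Neither response to TGFβ passed the test: 0.20 ± 0.12 in wild type (adjusted p = 0.145, 95% interval -0.05 to 0.45) and -0.07 ± 0.12 in the edited line (adjusted p = 0.643). Without replicate 1 of treated wild type the first became 0.36 (adjusted p = 0.00172). With a transcript length trend removed the second became -0.23 (adjusted p = 0.0165). The responses did not differ past the threshold (-0.27 ± 0.16, adjusted p = 0.303). They did without replicate 1 of treated wild type (-0.43, adjusted p = 0.0177) and with the length trend removed (-0.33, adjusted p = 0.0449). The untreated edited line exceeded wild type 1.55-fold (0.63 ± 0.12, adjusted p = 0.000631). Treated, the value was 0.36 ± 0.12 (adjusted p = 0.0550), and 0.53 without replicate 3 of treated wild type (adjusted p = 0.000352).

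Replicate 1 of treated wild type was the lowest and replicate 3 the highest of that group for 6 of the 10 genes: the 4 receptor chains IL6ST, LIFR, OSMR and IL6R, and LIF and STAT3. IL6, CLCF1 and SOCS3 had the opposite order, and IL11 neither. The 6 genes have the longest annotated exons of the 10, from 3.97 kb (LIF) to 11.9 kb (LIFR). IL6, CLCF1, SOCS3 and IL11 have 1.98 to 2.73 kb. The share of all genes with either order was not computed. Mitochondrially encoded genes held 3.79%, 3.22% and 2.73% of the counts in replicates 1 to 3 of that group and 2.20% to 2.83% in the other 9 libraries. The part of exon length or of the mitochondrial share in these values was not tested.

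STAT3, the main transcription factor of the family, was raised by TGFβ. It lies on chromosome 17 (42313324 to 42388568, minus strand). Counts were 14634, 14705 and 14863 in untreated wild type and 20551, 20760 and 21863 with TGFβ, and 12133, 11446 and 12036 against 22167, 21124 and 21541 in the edited line. The untreated lines were separate and the treated lines overlapped. STAT3 rose 1.43-fold in wild type (0.51 ± 0.05, adjusted p = 2.09e-07) and 1.82-fold in the edited line (0.86 ± 0.05, adjusted p = 3.12e-10), and the responses differed (0.35 ± 0.07, adjusted p = 0.00343). Untreated, the edited line was lower than wild type (-0.31 ± 0.05, adjusted p = 0.000226), whereas treated the difference was 0.04 (adjusted p = 0.707, 95% interval -0.07 to 0.15).

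SOCS3, the feedback inhibitor, was lower with TGFβ in wild type and higher in the edited line. It lies on chromosome 17 (78356778 to 78360077, minus strand). Counts were 3089, 3062 and 3283 in untreated wild type and 2860, 2720 and 2658 with TGFβ, and 1993, 2204 and 2081 against 2513, 2327 and 2492 in the edited line. All 4 groups were separate, with the untreated edited line lowest. SOCS3 fell by 0.20 in wild type (-0.20 ± 0.06, adjusted p = 0.0144), but did not pass when replicate 3 of untreated wild type was left out (adjusted p = 0.0688). It rose by 0.22 in the edited line (0.22 ± 0.06, adjusted p = 0.00595), and the responses differed (0.42 ± 0.09, adjusted p = 0.00458). The untreated edited line had less SOCS3 than wild type (-0.59 ± 0.06, adjusted p = 4.63e-06).

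**Figure D3:**
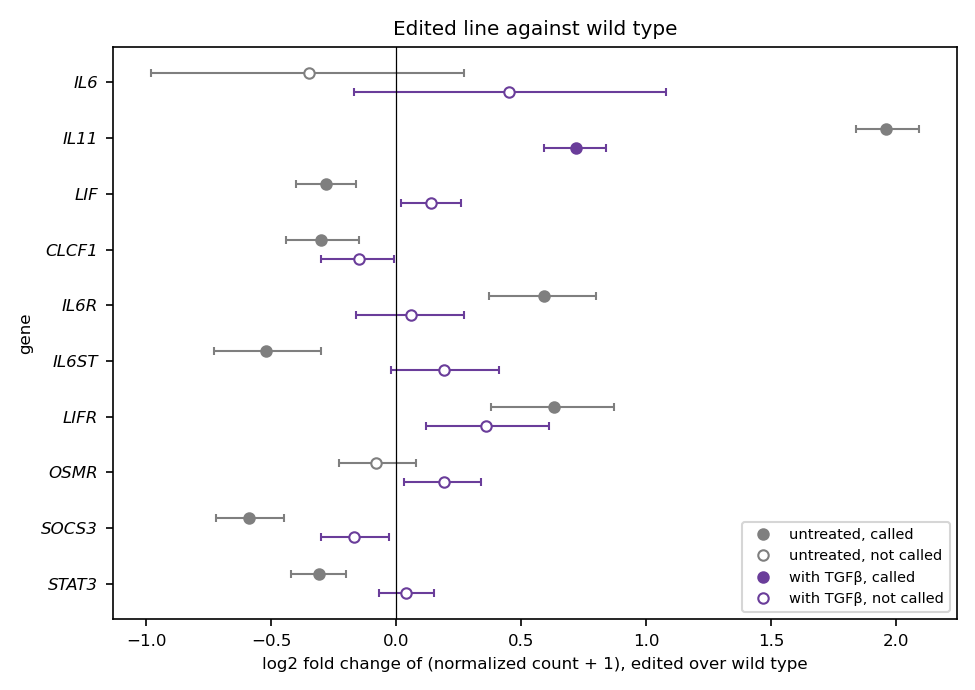
Log2 fold change of the edited line against wild type for each gene, without and with TGFβ; points are limma estimates and bars are 95% intervals. IL11 is above 0 in both conditions, at 1.96 and 0.72, while SOCS3 is at -0.59 without TGFβ and -0.17 with it.

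Levels of different genes were compared per kilobase of annotated exon (GENCODE 29). The length merges all annotated exons of a gene, and the transcripts present may be shorter, so close ranks may depend on it. Untreated, IL6ST was the highest of the 10 genes in both lines, at 4898 ± 174 normalised counts per kilobase in wild type and 3430 ± 249 in the edited line (SD, n = 3). With TGFβ, IL11 was the highest, at 6348 ± 243 in wild type and 10433 ± 700 in the edited line, having ranked 7 of 10 in untreated wild type (609 ± 7.11) and 4 of 10 in the untreated edited line (2376 ± 103). OSMR was then the next highest, at 5322 ± 594 and 6032 ± 105. IL6 and IL6R held the last places in all 4 groups: in treated wild type IL6 was at 83.9 ± 9.61 and IL6R at 104 ± 11.5.

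**Figure D4:**
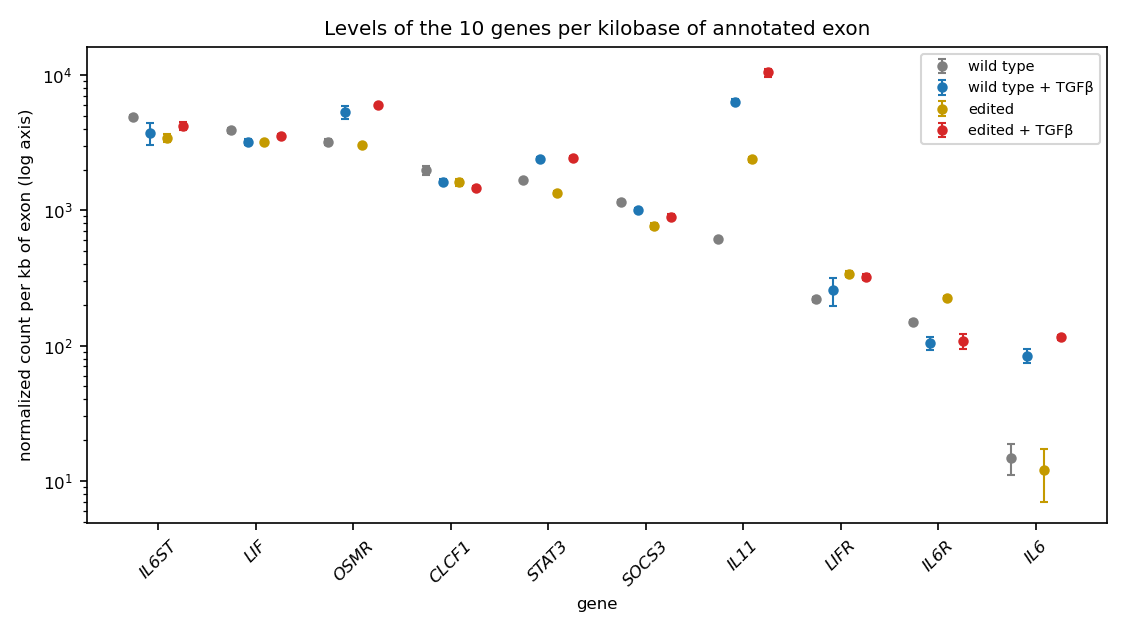
Mean normalised count per kilobase of annotated exon for each gene in the 4 groups, on a log axis; bars are SD over 3 libraries. IL11 moves from place 7 in untreated wild type to place 1 in both treated groups, and IL6 and IL6R stay lowest.

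Other genes of the pathway came from lists of 68 genes, of which 60 were tested; CNTFR, CTF1, IL27, IL31, CRP, HAMP, HP and SAA2 were below the filter, IL27 at 0 in every library. With TGFβ, 21 of the 60 rose and 24 fell in wild type, and 26 rose and 20 fell in the edited line, where the shares of all genes were 30.8% and 30.9%, then 32.1% and 30.7%. In the untreated edited line 6 were higher and 23 lower than in wild type (14.3% and 17.5% of all genes), with a median log2 fold change of -0.15 beside 0.00 for all genes. The interaction was called for 23 in the positive direction and 2 in the negative (10.6% and 6.02% of all genes; median 0.26, all genes 0.02). The counts of the single lists that follow are read against these same shares. Over all alternatives the positive calls ran from 19 to 26 and the negative from 1 to 3.

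Among the other ligands, 4 of 7 were tested. EBI3, a subunit of interleukin-27, rose in both lines (1.28 and 1.23), and CNTF rose in wild type (0.82, adjusted p = 0.0132), a call not made under every alternative. The 3 tested of 4 other receptors all rose in both lines. IL11RA, the private receptor of IL11, rose by 0.91 ± 0.14 in wild type and by 0.43 ± 0.14 in the edited line (the latter not called under every alternative), IL27RA by 1.26 and 1.40, and IL31RA by 1.66 and 1.65. Between the lines, 1 of these 7 tested ligands and receptors was called, IL27RA, lower in the untreated edited line (-0.29, adjusted p = 0.0366), which was not called under every alternative.

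Of 12 signalling genes, 4 rose and 5 fell with TGFβ in wild type, and 6 rose and 4 fell in the edited line. JAK1, a kinase bound to gp130, rose by 0.97 ± 0.06 and 1.30 ± 0.06, while JAK2 fell by 0.82 in wild type and by 0.35 in the edited line. GAB1, an adaptor of the SHP2 branch, rose by 0.94 and 1.81. In the untreated edited line 2 were higher and 6 lower. JAK1 (-0.52 ± 0.06, adjusted p = 6.41e-06) and GAB1 (-0.65 ± 0.12, adjusted p = 0.000753) were among those lower. The response differed between the lines for 6 of the 12, all in the positive direction, with GAB1 among them (interaction 0.87 ± 0.17, adjusted p = 0.00261).

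Of 14 JAK-STAT inhibitors, 2 rose and 5 fell in wild type, and 5 rose and 4 fell in the edited line. PTPN2, a phosphatase that acts on JAKs and STATs, fell by 1.51 ± 0.07 and by 0.81 ± 0.07. SOCS1, a relative of SOCS3, rose from 1.99, 0 and 14 to 23.1, 35.5 and 25.2 in wild type (3.00 ± 0.75, adjusted p = 0.00235), at counts where the estimate is wide. In the untreated edited line 0 were higher and 6 lower, among them PTPN2 (-0.71 ± 0.07) and SOCS6 (-0.52 ± 0.08), and 5 of 14 had a positive interaction.

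Of 18 genes known to respond to STAT3, 8 rose and 8 fell in wild type with TGFβ, and 9 rose and 5 fell in the edited line. JUNB, an AP-1 subunit, rose by 2.18 ± 0.08 and 2.45 ± 0.08, while CEBPB fell by 1.40 and 1.45. The kinase gene PIM1 rose by 0.97 in wild type and by 1.64 in the edited line, and was lower in the edited line than in wild type without TGFβ (-0.63 ± 0.05). ICAM1, an adhesion molecule, was at 1522, 1340 and 1544 in untreated wild type and at 568, 452 and 530 in the untreated edited line (-1.51 ± 0.11, adjusted p = 7.44e-08). FOS differed in its response (interaction 1.23 ± 0.13): it fell by 1.46 in wild type and by 0.23 in the edited line (adjusted p = 0.0413). These 18 genes have many other regulators.

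Of 13 acute phase genes, 9 were tested, and 6 fell and 1 rose in wild type, and 7 fell and 1 rose in the edited line. Their medians were -2.48 and -2.17. The fibrinogen chain FGA went from 76771, 77182 and 73718 to 8369, 8078 and 7195 in wild type (-3.27 ± 0.07), and fell by 2.83 in the edited line. LBP, which binds lipopolysaccharide, fell by 3.65 and 3.11. The gene that rose was SERPINA3 in both lines (1.18 and 1.79), named after its values were seen.

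**Figure D5:**
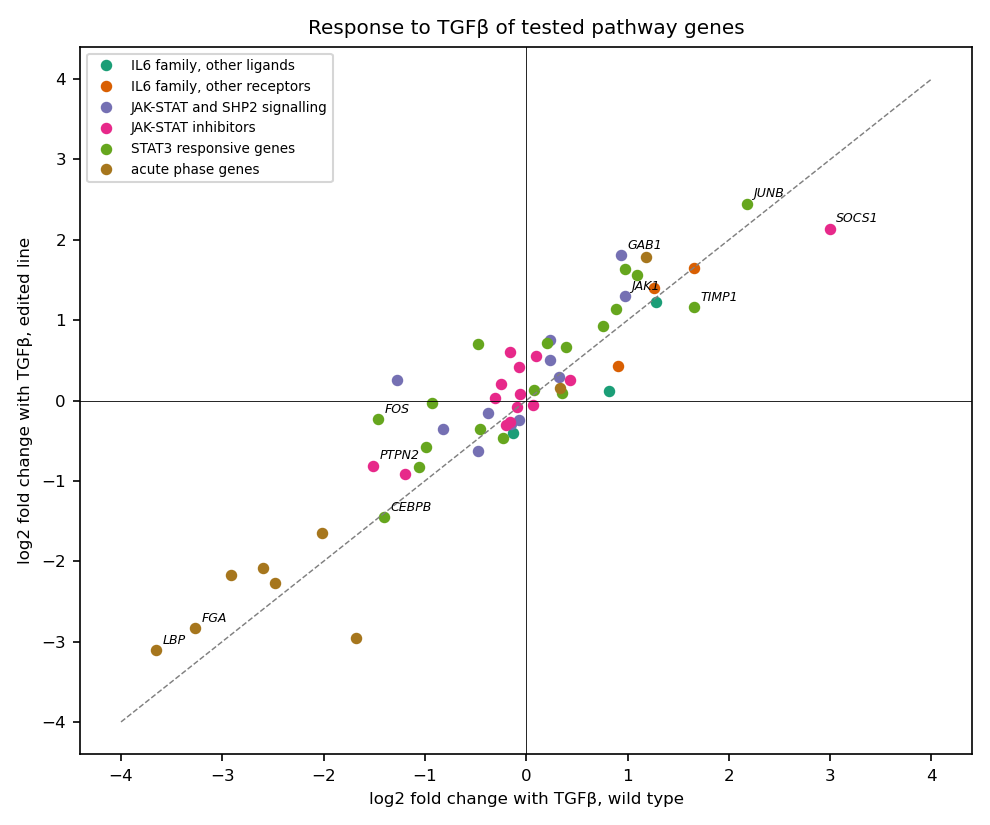
Log2 fold change with TGFβ in the edited line against that in wild type for the tested genes of the pathway lists that are reported here; each point is a gene, colours are the lists and the dashed diagonal marks equal responses. JUNB lies at 2.18 in wild type and 2.45 in the edited line, and FGA and LBP lie at the low end of both.

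The likeness of each gene's pattern to others is given as Pearson's r of log2 values over the 12 libraries among 13559 genes with a mean of at least 100. These libraries share 4 groups, so r mostly describes group means. IL11 was most like ITGA3 (r = 0.998) and TNFRSF10D (0.996), OSMR most like FOXN3 and DSG2 (both 0.996), and STAT3 most like WIPF1 and VDR (both 0.997). For IL6 the closest were TPST2 (0.985) and TGFB1I1 (0.984), for IL6R RP11-6N13.1 (0.985) and COG6 (0.984), and for IL6ST STAG2 (0.972) and TBX18 (0.955). CLCF1 was most like POLA2 (0.980) and MBD4 (0.975), SOCS3 most like RFC2 (0.980) and CENPU (0.976), LIFR most like PAPPA (0.961) and KIAA0232 (0.957), and LIF most like ZNF280D (0.939) and KDM4A (0.937). Within the 10, OSMR and STAT3 had the highest r (0.952), LIF and IL6ST had 0.902, and IL6R and STAT3 had the lowest (-0.947).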

How the data were processed

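RNA-seq of 12 libraries (4 groups of 3) gave 1 deposited table. Its values are a signal, normalised counts per gene, which the authors made from reads. The submitters' processing notes name HISAT2, StringTie, featureCounts and DESeq2 with GRCh38.p14; the sources used here do not give versions, roles, annotation or strand use. In each library the values are whole multiples of 1 step, which gave whole reads for 100% of values within 0.01 in the 12 libraries. P-values of the main fit test differences of group means against the spread between the repeats. That spread is pooled over the 4 groups for each gene and moderated by limma with a trend over all genes. No pair of repeats agreed within sampling noise. The chi-square of reads per degree of freedom, 1 under sampling noise alone, was 114 for replicates 1 and 3 of treated wild type. It ran from 10.7 to 39.4 for the other pairs within groups.

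The 20456 genes that reached 10 in 3 or more of the 12 libraries were tested as log2(value + 1) with limma 3.58.1 (trend, R 4.3.3), in 1 fit of 4 group means with 5 contrasts, two-sided, with Benjamini-Hochberg adjustment. The pseudocount understates changes of low genes. Alternatives were other pseudocounts, filters and scalings, fits of the compared groups, a replicate block, each library left out, edgeR 4.0.16 and DESeq2 1.42.0 on recovered reads, and removal of a transcript length trend, the last chosen after seeing the data. The quasi-likelihood test of edgeR on these reads gave 12669, 12803, 6529, 2564 and 3404 calls for TGFβ in wild type and in the edited line, the untreated lines, the treated lines and the interaction.

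All 10 genes are reported whatever their result. Of each pathway list up to 4 called genes with the largest change per comparison could be named, and the 2 genes most like each of the 10. The genes and lists were chosen with earlier results of these data known. Some genes of the lists are not reported here by name. Positions and exon lengths are from GENCODE 29 and promoters from RefSeq.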

Additional observations from a re-analysis of the deposited data

Results flagged for a closer look

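The TGFβ response of 6 genes differed between wild type and the edited line by limma's interaction test, given here as the log2 response in the edited line minus that in wild type. The difference was -1.25 for IL11, 0.42 for LIF, -0.53 for IL6R, 0.71 for IL6ST, 0.42 for SOCS3 and 0.35 for STAT3. For LIF, IL6ST and SOCS3 the untreated and treated libraries were separate within each line and moved in opposite directions, in the deposited scaling. Of 24 alternatives, the rise in the edited line was not called in 11 for LIF and 5 for IL6ST. The fall of SOCS3 in wild type was not called in 2. For IL11, IL6R and STAT3 the direction was the same in both lines and the size differed. In all 6 the untreated lines also differed, and after TGFβ only IL11 of the 6 passed the test between the lines.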

How the results depend on the processing

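Over 24 alternatives (23 for the interaction), 1147 of 1190 values of the 10 genes kept their direction and their side of the threshold. 18 lost the threshold, 20 gained it and 5 changed sign, spread over 16 of 50 results. Of these 43 changes, 21 were in the TGFβ response of the edited line (LIF 11, IL6ST 5, CLCF1 4, LIFR 1) and 15 in the comparison of the treated lines. The latter called 2 of the 10 genes, not 1, with a pseudocount of 10, a filter of 50, quantile normalization, equal library totals, the replicate block, DESeq2 and the length trend removed, and 1 to 5 with each library left out (5 without replicate 3 of treated wild type). Over all genes it called 2394, 1183 with only the compared groups fitted, and 1387 to 3829 with each library left out: 1387 without replicate 3 of the treated edited line, 1425 without replicate 2 and 3829 without replicate 3 of treated wild type. Its value for STAT3 changed from 0.04 to 0.00 with quantile normalization and -0.01 with the length trend removed, and for IL6R it ran from -0.04 to 0.14 with each library left out. For IL6 in the untreated lines it ran from -0.60 to 0.04. The cause was not tested. Same-numbered repeats showed little shared deviation (r from -0.031 to 0.129 over 18 pairs, 1 above 0.1). Such low r cannot exclude a weak pairing by number. With the replicate block 9, 8, 8, 2 and 6 of the 10 genes were called in the 5 comparisons, against 9, 8, 8, 1 and 6 in the main fit. Over all genes the block gave 12920, 13096, 7068, 2987 and 3987 calls, against 12624, 12842, 6514, 2394 and 3395. Of 86 results of named pathway genes, 12 lost their call somewhere and 0 changed sign. IL6, from 16 reads in its lowest library, is the gene most limited by depth.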
